A study of Mus musculus with 12 samples.

Results

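The genes for the proteins of the cytosolic ribosome were followed through 12 RNA-seq libraries of HT22 cells, an immortalized mouse hippocampal neuronal line. Members were taken by name: symbols that start with Rpl or Rps and a digit, S6 kinases left out, together with Rplp0, Rplp1, Rplp2 and Rpsa. Of 94 such names, 6 are pseudogene names and were dropped, and 4 did not reach an FPKM (fragments of a transcript scaled for its length and for the size of the library) of 0.5 in at least 3 libraries. The remaining 84 are a small part of the 11924 genes that passed that filter, out of 24343 with a unique name. They comprise 77 core subunit genes, 46 of the large and 31 of the small subunit. The other 7 are 5 paralogs whose names mark them as like a core gene (Rpl22l1, Rpl36al, Rpl39l, Rpl7l1 and Rps27l), the retrotransposed copy Rpl37rt, and Rps19bp1, which encodes a protein that binds Rps19 and is not itself part of the ribosome. Rpl27l is not a name in the tables.

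The study asked how HT22 cells respond to the loss of Ncoa4, the receptor that delivers ferritin to autophagy, and to a shortage of iron. Each of 4 groups had 3 libraries labelled as biological replicates: siControl, cells given a negative-control siRNA by liposomes at normal iron; siNCOA4, cells given a single siRNA against Ncoa4 in the same way at normal iron; and siControl+DFO and siNCOA4+DFO, the same siRNAs with the iron chelator deferoxamine (DFO) at 100 µM for 24 h. Libraries were made from total RNA with a stranded low-input kit. All groups are the same cell line, and every culture received liposomes and an siRNA.

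Ncoa4 itself was at 6.46, 6.19 and 6.02 FPKM in siControl replicates 1, 2 and 3 and at 8.70, 8.31 and 7.52 in siControl+DFO. It was at 0.770, 0.952 and 0.891 in siNCOA4 and at 0.850, 1.29 and 1.57 in siNCOA4+DFO, so every knockdown library lay below every control library. Replicates of a group correlated with r of 0.926 to 0.955 across genes, which are not independent points. Of 14 neuron markers, only 4 passed the filter, and Rbfox3, Map2, Snap25 and Nefl, which define mature neurons, stayed at or below 0.179 FPKM in every library. Tubb3, Dlg4 and Syn1, of the same list, were present in every library, at 4.56 to 13.6, 5.95 to 15.1 and 4.08 to 6.61 FPKM. In RNA from whole cultures, fewer cells of a type and less RNA per cell cannot be told apart, and FPKM values are shares of a library, so they do not say whether the amount of a transcript per cell changed.

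A ribosome holds 1 copy of nearly every one of these proteins, and cells produce them in step. In mammals, the transcripts of the ribosomal proteins begin with a run of pyrimidines, the 5′ terminal oligopyrimidine (TOP) motif, through which mTORC1 and the protein Larp1 set their translation and stability with the supply of nutrients. Ribosome production is a major use of energy in growing cells, and several iron-dependent enzymes act on ribosomes, among them oxygenases that hydroxylate Rpl8, Rpl27a and Rps23. Proteins of the P stalk (Rplp0, Rplp1 and Rplp2) bring elongation factors to the ribosome, and Rpl5 and Rpl11 can bind Mdm2 when assembly is disturbed.

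The start sites of 9 genes are shown because the comparisons below turn on them or because they show how far the pyrimidine run varies within the family. Each is 30 bases from RefSeq, build GRCm38.p6, read 5′ to 3′ on the gene's strand, with the longest run of C and T within 30 bases of the annotated start in capitals. Rps6 and Rps9 (small subunit), Rplp2 (P stalk), Rps25 and Rpl14 carry long runs, Rps3 and Rplp0 short ones, and Rps27l and Rpl39l are paralogs. In that order they lie at chr4:86857349-86857378 on the minus strand, chr7:3704024-3704053 on the plus strand, chr7:141447636-141447665 (plus), chr9:44407684-44407713 (plus), chr9:120571501-120571530 (plus), chr7:99483710-99483739 (minus), chr5:115559466-115559495 (plus), chr9:66946056-66946085 (plus) and chr16:10170198-10170227 (plus).
Rps6: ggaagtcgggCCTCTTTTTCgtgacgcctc
Rps9: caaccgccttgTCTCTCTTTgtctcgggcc
Rplp2: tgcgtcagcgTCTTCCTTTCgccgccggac
Rps25: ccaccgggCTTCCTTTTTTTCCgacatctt
Rpl14: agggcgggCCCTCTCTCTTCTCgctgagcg
Rps3: caTTTCCCatgaacacttgcaagggtcgcc
Rplp0: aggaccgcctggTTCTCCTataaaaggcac
Rps27l: cgcctccaCTCCTCTCCactcctccccgcc
Rpl39l: actgCCTCTCCCTagctcccaggcctttcc

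The run was 14 bases long in Rps25 and Rpl14, 10 in Rps6 and Rplp2, 9 in Rps9, Rps27l and Rpl39l, 7 in Rplp0 and 6 in Rps3. In Rps6 it began 1 base before the annotated start, and in Rps25 and Rps27l 22 bases before it. Rps27l holds a later run of the same length, left in lower case. Promoter entries were given for 64 members, 57 of them core. A run of 8 or more pyrimidines occurred in 29 of the 57 core members (50.9%) and in 22.8% of 27025 genes with an entry, with a median longest run of 8 bases against 5. The letters CTTTCC on the gene's own strand, within 30 bases of the start on either side, occurred in 15.8% of the core members and 2.85% of all genes. The letters CCGGAAG, which are part of a binding motif of ETS factors, occurred on either strand of the 300-base promoter in 40.4% of the core members and 9.12% of all genes. TATAAA occurred in 5.3% and 2.2% on the gene's own strand. These are matches of letters and not measured binding sites.

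The core genes are short and scattered, with transcripts of 334 bases (Rpl23) to 3706 bases (Rps20), a median of 644 bases, and positions on 19 chromosomes. Many have processed copies elsewhere in the genome. Of the 75-base windows of a member's transcript, a median of 49.9% occurred also in another gene, from 0% in Rps3, Rpl39l and Rps19bp1, among others, to 98.5% in Rps27. Windows of Rpl7a matched 64 other genes, those of Rps2 50 and those of Rpl29 45. How reads with several equally good positions were assigned is not given in the sources used here, so levels of genes with many copies are uncertain.

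In siControl, the core members had a median mean level of 521 FPKM. The highest were the P-stalk genes Rplp1, at 2707 ± 675 FPKM (SD, n = 3), and Rplp2, at 2199.9 ± 33.2, followed by Rpl8 at 1913 ± 137. Of the 77 core members, 67 were at 100 FPKM or more and 10 were lower. Rpl29 was listed at 1.16, 0 and 0.497 FPKM in siControl, at 0, 0.910 and 0.415 in siNCOA4, at 0.549, 0 and 0 in siControl+DFO and at 0 in all 3 siNCOA4+DFO libraries. Rpl29 was the member just inside the filter, with exactly 3 libraries at 0.5 FPKM or more, and Rpl3l, at most 0.294 FPKM, was just outside.

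Rpl17 was at 9.34, 2.06 and 0.892 FPKM in siControl, and Rps2 at 6.51, 7.30 and 8.53. Rpl26 was at 13.8, 120.3 and 70.6 FPKM in siControl and at 0.0018, 11.5 and 59.6 in siNCOA4+DFO. Its spread within groups, an SD of 2.64 on the log2 scale, was the widest of all members. The median spread within groups was 0.61 for the 10 core members below 100 FPKM and 0.16 for the other 67. Windows of Rpl29, Rpl17 and Rps2 matched 25 or more other genes each, and the part of shared sequence in these low levels was not tested.

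**Figure D1:**
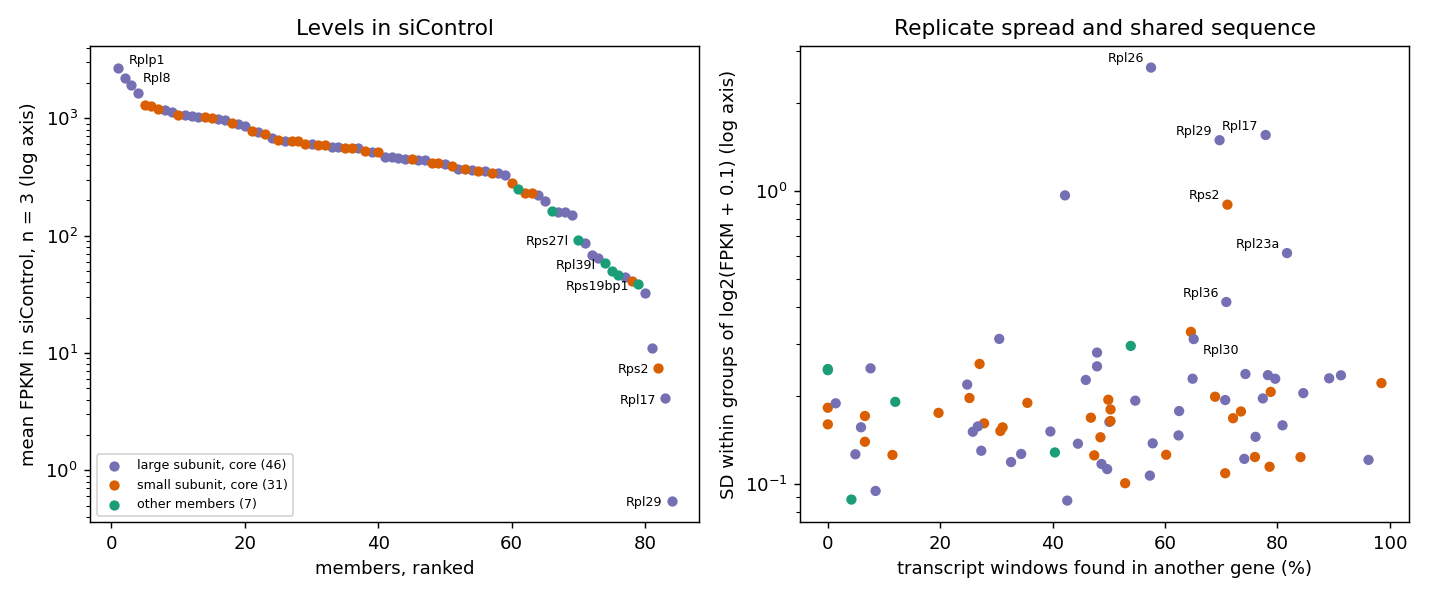
Left, the mean FPKM of each member in siControl (n = 3, log axis), ranked from high to low. Right, for each member, the share of its 75-base transcript windows found in another gene against the SD within groups of log2(FPKM + 0.1) on a log axis. Most members lie between 100 and 2707 FPKM with an SD near 0.16, and Rpl26, Rpl17 and Rpl29 stand out with the widest spread.

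The members moved together from library to library. For each gene, the log2 level was taken relative to its own mean over the 12 libraries, and the median over the 77 core members was −0.17, 0.28 and 0.28 in siControl replicates 1, 2 and 3. It was −0.05, 0.02 and 0.13 in siNCOA4, 0.07, 0.02 and −0.06 in siControl+DFO, and −0.11, −0.12 and −0.28 in siNCOA4+DFO. In siControl replicate 1, 63 of the 77 core members lay below their own mean, against 2 in each of the other siControl libraries. In siNCOA4+DFO, 67, 66 and 75 of the 77 lay below it. Thus siControl replicate 1 was unlike its own group and in the range of the siNCOA4+DFO libraries. The number of members called in each comparison with siControl is therefore given with and without it. Related gene lists are given with all 12 libraries unless stated.

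The members' FPKM summed to 39075, 52541 and 52521 in siControl, or 48046 ± 7769 (SD, n = 3). The sum was 44808 ± 3127 in siNCOA4, 43857 ± 2009 in siControl+DFO and 38414 ± 2768 in siNCOA4+DFO. Only the first siControl library, at 39075, lay as low as the siNCOA4+DFO libraries, which ranged from 35220.0 to 40119. Small RNAs (genes named as small nucleolar, small nuclear, Cajal body or microRNA genes) took 32.8 to 34.1% in siControl and 30.9 to 35.3% in siNCOA4 of the FPKM, against 37.7 to 41.2% in siControl+DFO and 43.8 to 47.5% in siNCOA4+DFO. With small RNAs left out of the total, the members made up 9.36, 12.7 and 12.8% of the FPKM in siControl, 11.1, 11.3 and 12.3% in siNCOA4, 10.6, 10.6 and 10.0% in siControl+DFO and 10.1, 10.3 and 9.38% in siNCOA4+DFO. On this scale the siNCOA4+DFO libraries overlapped those of siControl+DFO and siControl.

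Other short and abundant transcripts moved between libraries too. For 42 other coding genes with a mean above 100 FPKM and a transcript under 600 bases, the same median deviation was −0.14, 0.30 and 0.33 in siControl and 0.19, 0.25 and 0.34 in siNCOA4. It was −0.15, −0.20 and −0.26 in siControl+DFO and −0.17, −0.21 and −0.27 in siNCOA4+DFO. The first siControl library was again the lowest of its group. That library also had the highest level of Rmrp, the RNA of RNase MRP, at 39661 FPKM against 22505 to 28022 in the other 11. Whether the yield of short transcripts had a part in the levels of the ribosomal protein genes was not tested.

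**Figure D2:**
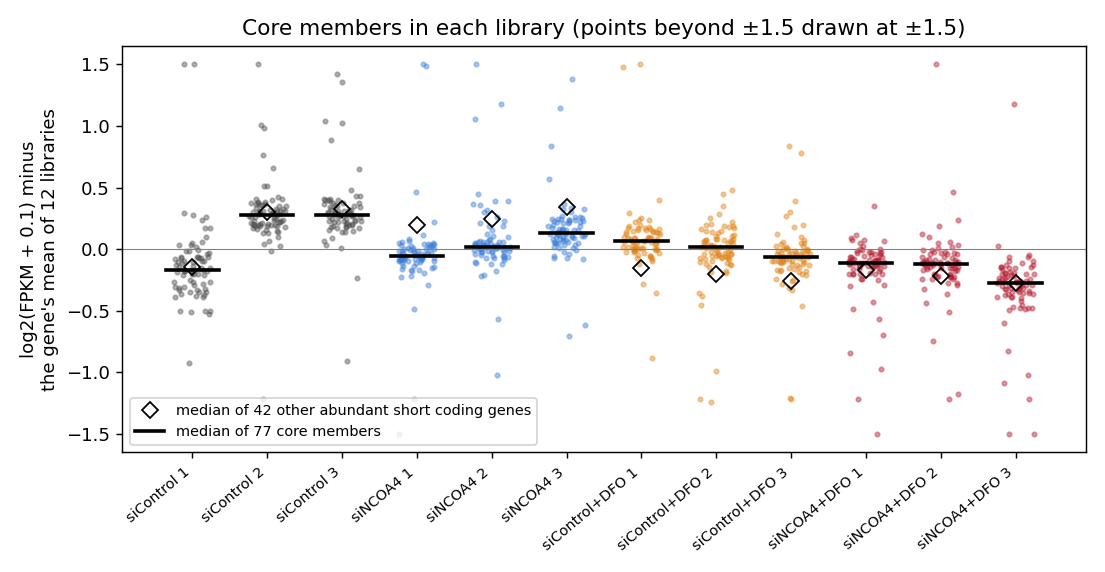
For each of the 12 libraries, the log2(FPKM + 0.1) of each of the 77 core members minus that gene's mean over all libraries (points), their median (bar), and the median of 42 other abundant coding genes with short transcripts (diamonds). The core median is 0.28 in siControl replicates 2 and 3, −0.17 in siControl replicate 1, and between −0.28 and −0.11 in siNCOA4+DFO.

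Knockdown of Ncoa4 at normal iron changed none of the 84 members at an adjusted p below 0.05 (limma, 3 against 3 libraries), against 11.7% of all genes tested, and 8 members had an unadjusted p below 0.05. The median log2 fold change of the members was −0.08 (0.03 with quantile scaling) and that of all genes 0.00, with 65 members below 0. For 71 of the 84 members, the 95% interval of the change lay within 1.5-fold in either direction. Without siControl replicate 1, the median was −0.24 and 5 members were called, all lower, among them Rpl14, Rpl3, Rpl36a and Rpl37, named here after their values were seen. These 5 were 5.95% of the members, against 4.65% of all genes called as lower and 7.86% called in either direction. Without siControl replicate 2 or 3, none was called and the median was −0.01 and 0.00.

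DFO with the control siRNA changed 12 of the 84 members, 2 higher and 10 lower, whereas 53.4% of all genes tested were called, 27.7% as higher and 25.7% as lower. Rps27l and Rps19bp1 rose, and those that fell included Rpl30, Rps25, Rpl39l, Rps26, Rpl37a, Rpl28, Rps4x, Rpl14 and Rpl3. The median change was −0.12, with 67 members below 0. Rps26, which joins late in small-subunit assembly, fell by 0.40 (adjusted p = 0.0239) and Rpl37a by 0.38 (adjusted p = 0.0171), calls that were lost without siControl replicate 2 or 3 or siControl+DFO replicate 3, and for Rps26 also without siControl+DFO replicate 2. Only Rpl30 passed the study's rule of a fold change above 2 with an adjusted p below 0.05, a rule that 18.8% of all genes met. The groups did not overlap for 12 members that were lower (14.3%), against 29.6% of all genes.

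The DFO counts rested on the siControl libraries. Without siControl replicate 1, 30 members were called, against 50.9% of all genes, and the median change was −0.25. Called as lower were then 34.5% of the members and 24.2% of all genes, against 11.9% and 25.7% with all 12 libraries. Without siControl replicate 2 or 3, 6 were called in each case, with medians of −0.06 and −0.05. Of the members 5.95% and 4.76% were then called as lower, against 22.6% of all genes in each case. Upper-quartile scaling, which put the median change of all genes at −0.13, gave 1 higher and 21 lower members. Rpl14, Rpl30, Rps25 and Rps27l were called whichever library was left out.

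The combined treatment, siNCOA4+DFO, set against siControl, changed the largest number of members: 32 of 84, of which Rps27l rose and 31 fell. Of all genes tested, 48.8% were called, 25.4% as higher and 23.4% as lower, beside 36.9% of the members called as lower. Which of these shares was higher depended on the siControl libraries, and the difference was not tested. Without siControl replicate 1, 81.0% of the members and 22.7% of all genes were called as lower. Without siControl replicate 2 it was 17.9% and 20.3%, without replicate 3 16.7% and 20.3%, and with only the groups compared in the fit 16.7% and 20.6%, so in these the members lay below all genes. The median change of the members was −0.31 and 79 lay below 0. The groups did not overlap for 27 members that were lower (32.1%), against 26.3% of all genes. Both subunits took part, with 12 of 31 core genes of the small and 16 of 46 of the large subunit called and a median of −0.31 in each. Members with under 30% of their windows shared with another gene had 8 of 22 called and a median of −0.23, and those with 30% or more had 24 of 61 and −0.32. Core genes with a start-site run of 8 or more pyrimidines had 10 of 29 called, with a median of −0.31, and those with a shorter run 9 of 28, with −0.28.

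Most of these falls were small. Only 1 member passed the rule of a fold change above 2, which 15.2% of all genes met. The count ran from 15 without siControl replicate 3 and 16 without siControl replicate 2 to 69 without siControl replicate 1, when the median was −0.44 and 47.6% of all genes were called. Of the 32 members, 15 were called whichever library was left out, among them Rps27l, which was higher, and Rpl30, Rpl39l, Rpl14, Rpl3, Rps25, Rplp2, Rpl8, Rps27a, Rpl10a, Rpl28, Rpl6 and Rps9, which were lower. Over the 42 other abundant coding genes with transcripts under 600 bases, the median change in the same comparison was −0.36. It was −0.30 over 112 abundant ones of 600 to 1000 bases, the class that holds the core median of 644 bases. Over 127 abundant ones of 2000 bases or more it was −0.05. In these 3 classes 23, 60 and 49 genes were called as lower, beside 31 of the 84 members and 23.4% of all genes.

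**Figure D3:**
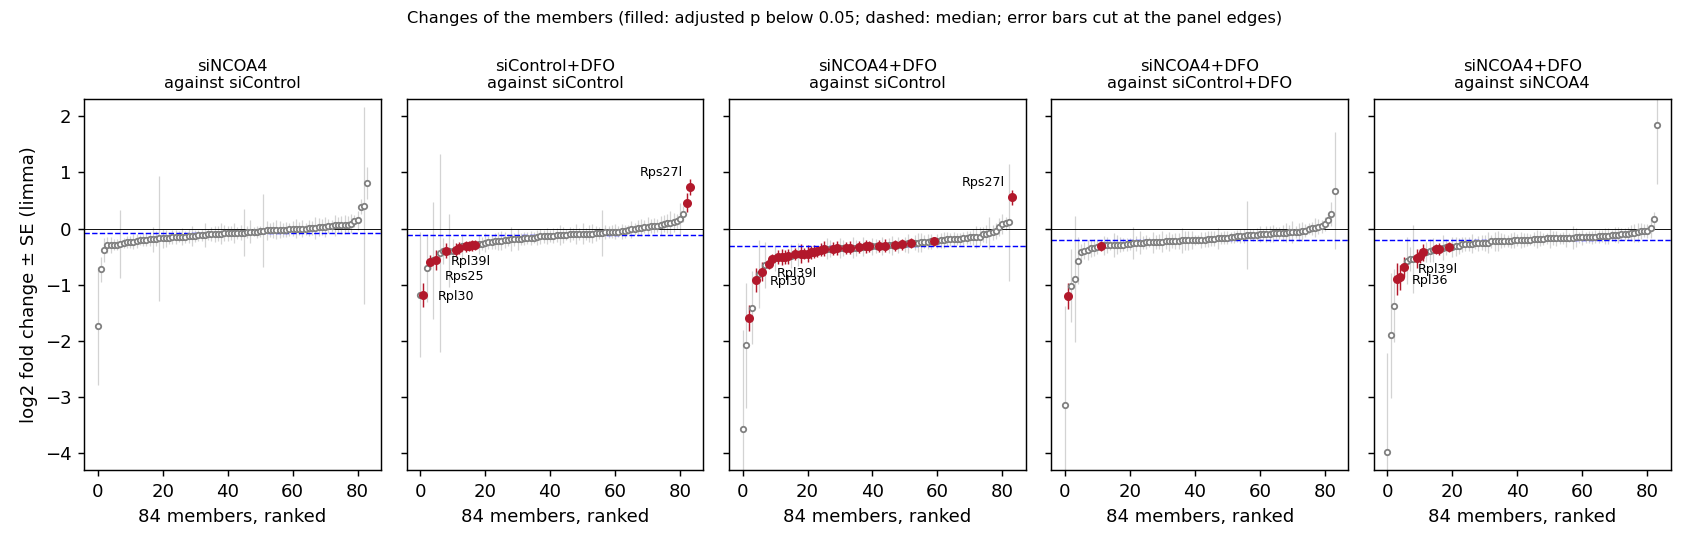
The log2 fold change of each of the 84 members with its standard error (limma), ranked within each of 5 comparisons, with the median as a dashed line and members at an adjusted p below 0.05 filled. The medians are −0.08, −0.12, −0.31, −0.20 and −0.21 from left to right, and the point below −3 in the last 3 panels is Rpl26, whose replicates spread too widely for a call.

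The effect of Ncoa4 knockdown under DFO, siNCOA4+DFO against siControl+DFO, does not involve the siControl libraries other than in the shared estimate of the spread. Of the 84 members 2 fell, among them Rpl14, against 16.5% of all genes called and 10.2% called as lower. A fold change above 2 was reached by 1 member and by 2.09% of all genes. The median was −0.20 and 76 members lay below 0, and for 32 members (38.1%) all 3 siNCOA4+DFO libraries were below all 3 siControl+DFO libraries, against 20.1% of all genes. Among the 42 other abundant coding genes with transcripts under 600 bases, 9 were called as lower, with a median of −0.03. Among the 112 of 600 to 1000 bases 21 were, with −0.14, and among the 127 of 2000 bases or more 41, with −0.13. Quantile scaling brought the median to −0.05 and called 2 members lower, among them Rps9, and Rpl37a higher. With siControl replicate 1 out of the fit, 8 members were called, all lower.

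The effect of DFO in knocked-down cells, siNCOA4+DFO against siNCOA4, was a fall of 9 members, against 42.7% of all genes called and 19.6% called as lower. Among the 9 were Rpl36, Rpl39l, Rpl15, Rps25, Rps23, Rpl14, Rpl27 and Rpl3. Rpl15, of the large subunit, fell by 0.53 (adjusted p = 0.0227), a call lost without siNCOA4 replicate 2 or 3 or siNCOA4+DFO replicate 1. None passed the rule of a fold change above 2 (limma), which 11.4% of all genes met. The median was −0.21 and 81 members lay below 0. For 37 members (44.0%) the groups did not overlap and siNCOA4+DFO was lower, against 25.1% of all genes. Of the 42 other abundant coding genes with transcripts under 600 bases, 23 were called as lower, with a median of −0.43. Of the 112 of 600 to 1000 bases, 56 were called as lower, with a median of −0.31. Of the 127 of 2000 bases or more, 39 were called as lower, with a median of 0.01. The count of members was 5 without siNCOA4 replicate 3 and 19 with siControl replicate 1 out of the fit. Called as lower were then 5.95% of the members against 15.8% of all genes, and 22.6% against 20.1%. Rpl14, Rpl3, Rpl39l and Rps25 were among those called whichever library was left out.

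The difference between the effects of knockdown with and without DFO, the interaction, was called for none of the 84 members (limma) and for 2.1% of all genes. Rpl36, Rps27l and Rps19bp1 had an unadjusted p below 0.05. The median interaction was −0.09, from −0.17 to 0.04 as 1 library was left out, so its sign depended on siControl replicate 1. These comparisons share libraries, and the values for each gene are therefore set side by side and not correlated.

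Rps27l, the paralog of Rps27 and a known target of p53 in human cells, had the largest called rise. It lies at chr9:66946086-66949516 on the plus strand (GRCm38, GENCODE M21), and 12% of its windows occurred elsewhere. It was at 74.7, 102 and 100.1 FPKM in siControl, at 111, 138 and 112 in siNCOA4, at 157, 155 and 145 in siControl+DFO and at 137, 154 and 115 in siNCOA4+DFO. Every library of the other 3 groups lay above every siControl library. The change was 0.74 ± 0.14 (log2, SE, adjusted p = 0.000685, limma) with DFO and 0.55 ± 0.14 (adjusted p = 0.00506) with both treatments, whereas siNCOA4 alone gave 0.39 ± 0.14, which did not pass (adjusted p = 0.089).

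Its parent Rps27 was at 428, 689.6 and 692 FPKM in siControl, 632, 621 and 626 in siControl+DFO and 655, 628 and 529 in siNCOA4+DFO. The groups overlapped, and the log2 changes were 0.03 with siNCOA4, 0.09 with DFO and 0.03 with both, none past the test. The log2 ratio of Rps27l to Rps27 was −2.52, −2.76 and −2.79 in siControl, and it was −2.37, −2.08 and −2.52 in siNCOA4. Under DFO it was −2.01, −2.00 and −2.11, and under both treatments −2.26, −2.02 and −2.20. The ratio under DFO was above that of siControl in every library, with and without the knockdown, which does not depend on the scaling of a library. It does depend on the level of Rps27, which is uncertain because 98.5% of the windows of Rps27 occurred in another gene.

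Rpl39l, a paralog of Rpl39 that is enriched in testis and stem cells, went the other way. It lies at chr16:10170226-10174911 on the plus strand and shares none of its windows with another gene. It was at 45.1, 58.9 and 70.6 FPKM in siControl and 49.6, 65.5 and 48.9 in siNCOA4. It was at 43.2, 33.1 and 40.9 in siControl+DFO and 36.2, 36.6 and 28.6 in siNCOA4+DFO. Both DFO groups lay below every siControl library. The fall was −0.56 ± 0.17 (adjusted p = 0.0162) with DFO, and the call was lost without siControl replicate 3 or siControl+DFO replicate 2.

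Rpl39l fell by 0.77 on the log2 scale with both treatments (SE 0.17, adjusted p = 0.00284) and by 0.69 relative to siNCOA4 (adjusted p = 0.00662). Rpl39 was at 121, 182 and 178 FPKM in siControl and 159.7, 148 and 122 in siNCOA4+DFO, with a change of −0.15 (adjusted p = 0.51). The log2 ratio of Rpl39l to Rpl39 ran from −1.63 to −1.33 in siControl and from −2.14 to −2.01 in siNCOA4+DFO. The same chelator thus went with a higher level of Rps27l and a lower one of Rpl39l relative to their parents.

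The other paralogs were nearer to their parents. Rpl22l1, which was as abundant as Rpl22 (103% of its FPKM in siControl), was at 112, 181 and 196 FPKM in siControl and 112, 98.7 and 138 in siNCOA4+DFO, which overlap. The change was −0.46 (adjusted p = 0.0822), beside −0.23 for Rpl22 (adjusted p = 0.179). Rpl7l1, a factor of large-subunit assembly at 5.50% of the level of Rpl7, was at 45.8, 50.7 and 52.0 FPKM in siControl and 45.2, 41.8 and 40.1 in siNCOA4+DFO, and fell by 0.22 (adjusted p = 0.0349), with Rpl7 at −0.18 (adjusted p = 0.187). Rpl36al changed by −0.31 (adjusted p = 0.0231) and Rpl36a also by −0.31 (adjusted p = 0.122). The call for Rpl7l1 was lost without siControl or siNCOA4+DFO replicate 2 or 3, and that for Rpl36al without siControl replicate 2 or 3 or siNCOA4+DFO replicate 1 or 3. Rpl37rt, at 8.30% of the level of Rpl37, changed by −0.53 (adjusted p = 0.0665), and Rpl37 by −0.37 (adjusted p = 0.0204), a call lost without siControl replicate 2 or 3 or siNCOA4+DFO replicate 3. Rps19bp1 was at 33.4, 39.0 and 42.6 FPKM in siControl and 65.1, 46.9 and 47.6 in siControl+DFO, a rise of 0.46 ± 0.17 (adjusted p = 0.0378) that was lost without siControl replicate 1 or 2 or siControl+DFO replicate 1.

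Among the core subunits, Rpl30, a large-subunit protein that can bind its own transcript in yeast, fell with DFO. It lies at chr15:34440505-34443640 on the minus strand, with 65.1% of its windows in 12 other genes. It was at 107, 150.3 and 193 FPKM in siControl, 95.4, 125 and 119 in siNCOA4, 51.4, 69.2 and 75.5 in siControl+DFO and 67.9, 70.1 and 96.8 in siNCOA4+DFO. Both DFO groups lay below siControl. The change was −1.18 ± 0.21 with DFO (adjusted p = 0.000579) and −0.92 ± 0.21 with both (adjusted p = 0.00355). Relative to siNCOA4 it was −0.54 (adjusted p = 0.06), with overlapping libraries.

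Rps25, a small-subunit protein used by some viral and cellular internal ribosome entry sites, was at 266, 397 and 366 FPKM in siControl and 323, 347 and 331 in siNCOA4. It was at 229, 217 and 224 in siControl+DFO and 255, 229 and 227 in siNCOA4+DFO. All 6 DFO libraries lay below all 6 without DFO. Rps25 fell by 0.60 with DFO (adjusted p = 0.00145), by 0.51 with both treatments (adjusted p = 0.00437) and by 0.49 relative to siNCOA4 (adjusted p = 0.0065). Its gene is at chr9:44407139-44410427 on the plus strand, with 50.3% of its windows in 7 other genes. The start site of Rps25, shown above, has one of the longest pyrimidine runs printed.

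Rpl14, at chr9:120571444-120574654 on the plus strand, had a small change, and 42.6% of its windows occurred also in Rpl14-ps1. That pseudogene was listed at 283, 351 and 328 FPKM in siControl and 237, 223 and 209 in siNCOA4+DFO, and the part of shared sequence was not tested. Rpl14 was at 424, 475 and 496 FPKM in siControl, 386, 373 and 405 in siNCOA4, 402, 367 and 353 in siControl+DFO and 309, 307 and 286 in siNCOA4+DFO. The siNCOA4+DFO libraries lay below all others. It fell by 0.31 with DFO (adjusted p = 0.00779), by 0.63 with both (adjusted p = 6.71e-05) and by 0.37 relative to siNCOA4 (adjusted p = 0.00401). Relative to siControl+DFO it fell by 0.31 (adjusted p = 0.0264), a call lost without siControl+DFO replicate 1 or 2 or siNCOA4+DFO replicate 2 or 3.

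Rpl3, a large-subunit protein near the peptidyl transferase centre, was at 284, 344 and 364 FPKM in siControl, at 282, 286 and 286 in siNCOA4, at 271, 255 and 279 in siControl+DFO and at 232, 234 and 213 in siNCOA4+DFO. It fell by 0.54 with both treatments (adjusted p = 0.00039) and by 0.33 relative to siNCOA4 (adjusted p = 0.0114). With DFO alone the fall was 0.29 (adjusted p = 0.017), lost without siControl replicate 2 or 3 or siControl+DFO replicate 2. Of the windows of Rpl3, 57.3% occurred in 5 other genes.

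Rpl36, at chr17:56613416-56614243 with 70.9% of its windows in 5 other genes, was at 361, 538 and 437 FPKM in siControl and 706, 698 and 915 in siNCOA4. It was at 400.0, 495 and 617 in siControl+DFO and 345, 709 and 289.5 in siNCOA4+DFO. The siNCOA4 libraries lay above siControl without overlap, with a change of 0.80 ± 0.29 that did not pass (adjusted p = 0.094). Against siNCOA4, the siNCOA4+DFO libraries gave −0.89 ± 0.29 (adjusted p = 0.0243), although replicate 2 of siNCOA4+DFO, at 709, lay within the range of siNCOA4. Without that library the change with siNCOA4 and the interaction were both called, the interaction at −1.45 (adjusted p = 0.0349), and without siNCOA4 replicate 3 or siNCOA4+DFO replicate 1 or 3 the call against siNCOA4 was lost.

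**Figure D4:**
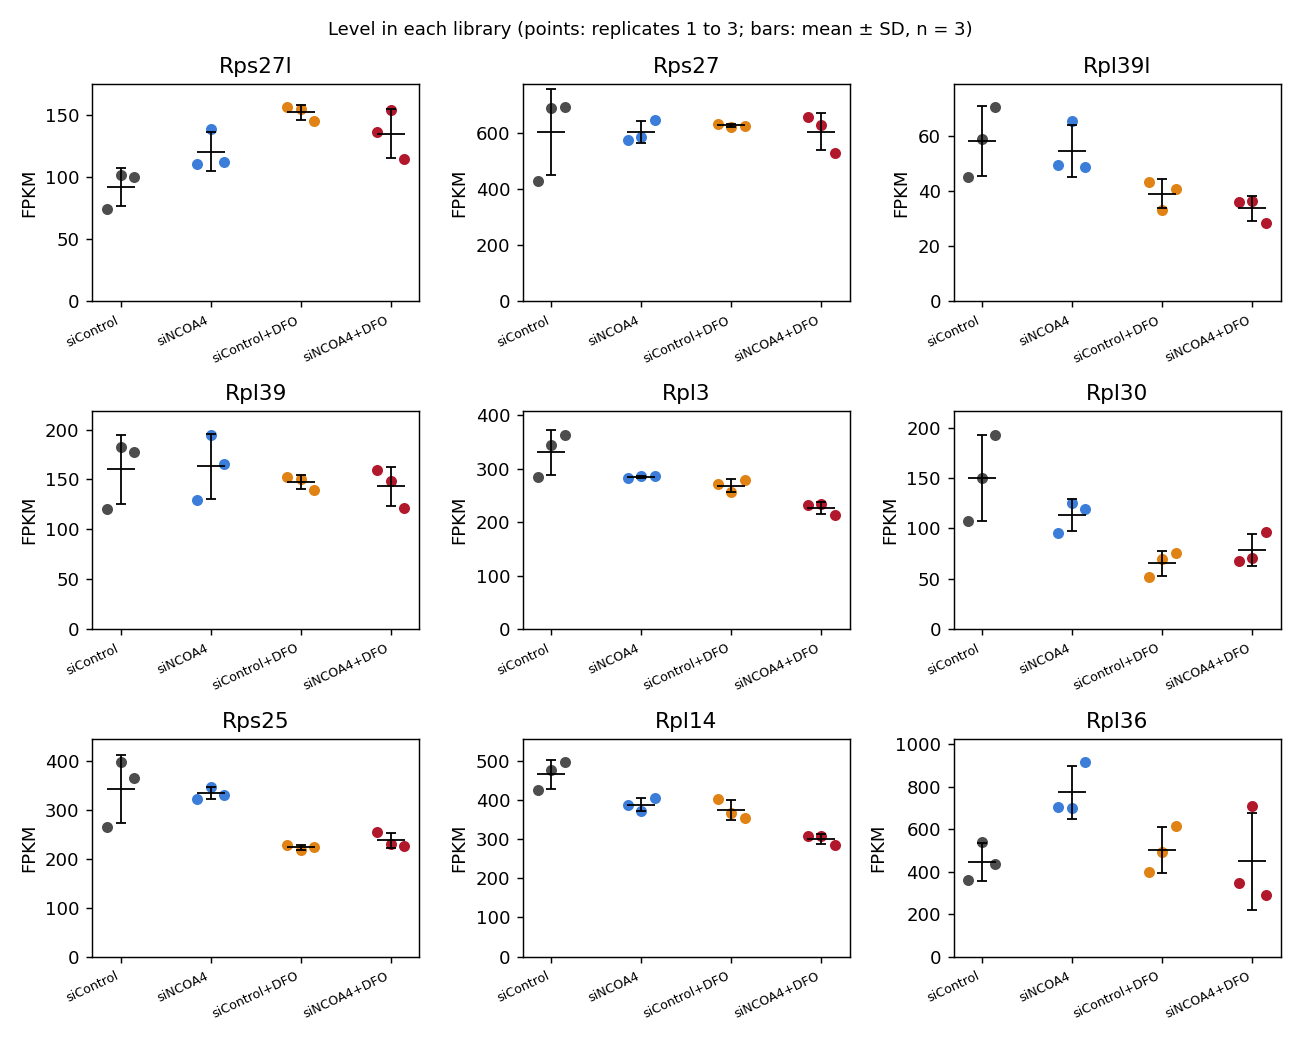
FPKM in each library of 9 members that the comparisons turn on, by group (points, replicates 1 to 3; bars, mean ± SD, n = 3; linear axes from 0). Rps27l is above siControl in all other groups while Rps27 overlaps, Rpl39l, Rpl30 and Rps25 are lower in both DFO groups, and Rpl14 and Rpl3 are lowest in siNCOA4+DFO.

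The P-stalk genes gave different values, and the differences among them were not tested. Rplp0 was at 879.8, 1008 and 1023 FPKM in siControl and 1071, 1109.7 and 928 in siNCOA4+DFO, a change of 0.09 (95% interval −0.15 to 0.34, adjusted p = 0.519). Rplp1 was at 1935, 3002 and 3184 in siControl and 2316, 2081 and 1893 in siNCOA4+DFO, a change of −0.34 (adjusted p = 0.153). Rplp2 was at 2238, 2177 and 2184 in siControl and 1674, 1681 and 1314 in siNCOA4+DFO, below it without overlap, and fell by 0.51 (SE 0.14, adjusted p = 0.00797). Of the 3, Rplp2 was the one that passed the test in the combined comparison with all 12 libraries. Rplp1 was lowest of its group in siControl replicate 1, and without that library 68 members were called as lower in this comparison.

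Rps3, at the entry of the mRNA channel, was at 214, 304 and 324 FPKM in siControl and 276, 262 and 238 in siNCOA4+DFO, which overlap, with a change of −0.10 (95% interval −0.39 to 0.19). Rpsa, which also gives rise to a laminin receptor, fell by 0.36 in the combined comparison (adjusted p = 0.0244), and Rps6, the S6 kinase target, by 0.33 (adjusted p = 0.0215). Both calls were lost without siControl replicate 2 or 3 or siNCOA4+DFO replicate 3, and that for Rpsa also without siNCOA4+DFO replicate 2. Of the pair that binds Mdm2, Rpl5 was at −0.19 (adjusted p = 0.161) and Rpl11 at −0.32 (adjusted p = 0.134), with all 12 libraries in the fit. In siControl Rpl5 was at 503, 648 and 654 FPKM and Rpl11 at 402, 662 and 636, each lowest in replicate 1.

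All 3 substrates of iron-dependent hydroxylases fell in the combined comparison: Rpl8 by 0.50 (adjusted p = 0.00606), Rps23 by 0.45 (adjusted p = 0.0236, with overlapping libraries) and Rpl27a by 0.34 (adjusted p = 0.0168). In that comparison 36.9% of the members and 23.4% of all genes were called as lower, and 79 of the 84 members lay below 0. The calls for Rps23 and Rpl27a were lost without siControl replicate 2 or 3, and that for Rps23 also without siNCOA4+DFO replicate 2, and that for Rpl27a with quantile scaling, at −0.14. Rps27a, which encodes a ubiquitin fused to a ribosomal protein, fell by 0.40 (adjusted p = 0.00415). Of the core subunits whose names lie outside the rule, neither Fau nor Gnb2l1 (Rack1) was called in any of the 6 comparisons with all 12 libraries. Without siControl replicate 1, Gnb2l1 was called in the combined comparison, at −0.29 (adjusted p = 0.0304). Fau was at 905 ± 160 FPKM in siControl (SD, n = 3) and 847 ± 96.4 in siNCOA4+DFO, and Gnb2l1 at 885 ± 96.3 and 769.7 ± 58.0.

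The introns of many of these genes encode small nucleolar RNAs, which guide the modification of ribosomal RNA and are released when the intron is spliced and trimmed. The annotation placed 66 small RNAs inside the span of a member. Of 34 in the tables that are small nucleolar RNAs by name, 33 of them annotated as such and Snord43 as a microRNA, 28 passed the filter, in 22 host genes. FPKM of such short genes in total RNA libraries vary widely, and reads of the mature RNA and of the unspliced intron cannot be told apart in these tables.

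In the comparisons with DFO, the medians of the small RNAs and of their hosts had opposite signs. In siNCOA4+DFO against siNCOA4, 16 of the 28 were higher and none lower, against 23.1% of all genes called as higher, with a median change of 0.93, while the median change of their hosts was −0.19. Against siControl, 6 were higher and none lower, a smaller share than the 25.4% of all genes, with a median of 0.66 beside −0.31 for the hosts. With DFO alone 2 rose, against 27.7% of all genes (median 0.40, hosts −0.10), and with knockdown alone 1 fell, Snora3, against 7.21% of all genes (median −0.28, hosts −0.10). None was called by limma in siNCOA4+DFO against siControl+DFO, where the median was 0.25, or for the interaction, where it was 0.59. As 1 library was left out, the number higher ran from 10 to 17 against siNCOA4 and from 3 to 9 against siControl. The share of all FPKM taken by small RNAs was higher in the DFO groups, as given above, and its part in these changes was not tested.

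Snora64, in an intron of Rps2 at chr17:24720772-24720905, was at 944, 1255 and 1125 FPKM in siNCOA4 and 1940.2, 2014 and 2262 in siNCOA4+DFO. Its rise was 0.91 (adjusted p = 0.000273) and, against siControl, 0.67 (adjusted p = 0.00195). All 3 siNCOA4+DFO libraries lay above all siNCOA4 libraries.

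Snord15a and Snord15b, in introns of Rps3, rose by 0.95 (adjusted p = 0.00826) and 0.89 (adjusted p = 0.0246) against siNCOA4, where Rps3 was at −0.08. The call for Snord15b was lost without siNCOA4 replicate 1 or 2 or siNCOA4+DFO replicate 1 or 3. Snord35a, in an intron of Rpl13a, was at 2344, 1758 and 1856 FPKM in siControl and 5051, 4402 and 7309.8 in siNCOA4+DFO, a rise of 1.47 (adjusted p = 0.00149), with Rpl13a at −0.15. Snora3, in an intron of Rpl27a, was at 119, 155 and 155 FPKM in siControl and 24.8, 66.2 and 88.0 in siNCOA4, without overlap (change −1.44, adjusted p = 0.0404), a call lost without any 1 siControl library, siNCOA4 replicate 1 or 2 or siControl+DFO replicate 3 (adjusted p up to 0.105). These small RNAs were chosen after their values were seen.

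**Figure D5:**
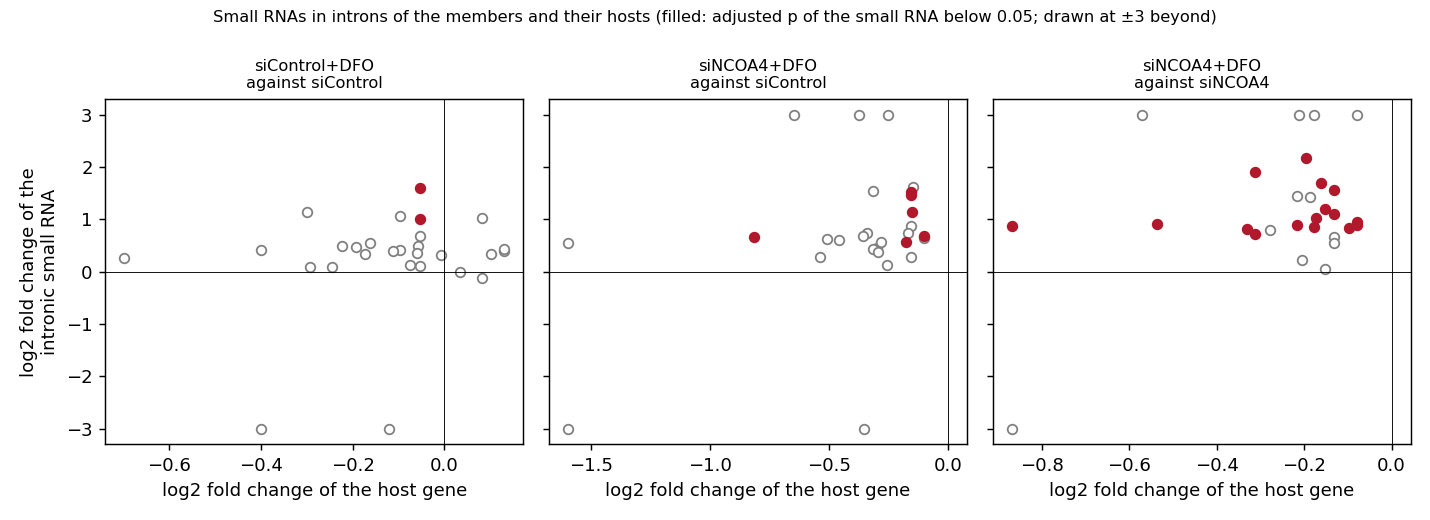
For 28 small RNAs in introns of the members, the log2 fold change of the small RNA against that of its host gene in 3 comparisons (filled, adjusted p of the small RNA below 0.05; values beyond ±3 drawn at ±3). In siNCOA4+DFO against siNCOA4 the 16 filled points lie above 0 while nearly all hosts lie left of 0.

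Genes of translation and related genes whose transcripts also begin with a TOP motif included some that fell with the knockdown alone, where no ribosomal protein gene was called. The difference between these lists was not tested. The list holds elongation and initiation factors and also Pabpc1, Tpt1, Npm1, Nap1l1 and Hnrnpa1. Of its 14 genes, 5 fell with siNCOA4, 4 with DFO, 7 with both treatments, 2 in siNCOA4+DFO against siControl+DFO and 5 in siNCOA4+DFO against siNCOA4, and none rose in these. The shares of all genes called as lower were 7.21%, 25.7%, 23.4%, 10.2% and 19.6% in that order. The list was at 35.7%, 28.6%, 50.0%, 14.3% and 35.7%, with medians of −0.28, −0.11, −0.26, −0.13 and −0.09. The siNCOA4 count ran from 2 to 6 as 1 library was left out. Eef1g, a subunit of the elongation factor exchange complex, was at 694, 697 and 695 FPKM in siControl, 412, 374 and 414 in siNCOA4, 527, 543 and 517 in siControl+DFO and 305, 340.1 and 302 in siNCOA4+DFO. The 4 groups did not overlap. Eef1g fell by 0.80 with knockdown (adjusted p = 7.44e-05), by 0.40 with DFO (adjusted p = 0.00106) and by 1.14 with both (adjusted p = 3.32e-07).

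Eif4b, an initiation factor that aids the helicase of the cap complex, fell by 0.45 with knockdown (adjusted p = 0.000725) and by 0.65 with DFO (adjusted p = 3.4e-06). It was the 1 gene of the list with a called interaction, 0.48 ± 0.09 (adjusted p = 0.0182), which was lost without siNCOA4 replicate 2 or 3 or siControl+DFO replicate 1 or 2. Eif3e, a subunit of initiation factor 3, fell by 0.90 with both treatments (adjusted p = 0.000198), and Eef1d by 0.58 with DFO.

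RNA polymerase I and its factors, which make the ribosomal RNA precursor, went both ways. Of 15 genes, 5 rose and 3 fell with DFO, 5 rose and 5 fell with both treatments, 2 fell with knockdown, 1 fell in siNCOA4+DFO against siControl+DFO, and 4 rose and 3 fell in siNCOA4+DFO against siNCOA4. The share called was 53.3% with DFO, where 53.4% of all genes were called, 66.7% with both treatments against 48.8%, and 13.3% with knockdown against 11.7%. In siNCOA4+DFO against siControl+DFO it was 6.67%, beside 16.5% of all genes, and in siNCOA4+DFO against siNCOA4 46.7%, beside 42.7%. Ubtf, which keeps the ribosomal DNA open, was at 56.8, 57.6 and 57.5 FPKM in siControl and 46.5, 41.5 and 43.2 in siNCOA4. It was at 23.6, 24.5 and 23.9 in siControl+DFO and 24.4, 23.4 and 23.6 in siNCOA4+DFO. Both DFO groups were below the others without overlap, and the fall was 0.39 with knockdown (adjusted p = 0.00244) and 1.25 with DFO (adjusted p = 2.15e-08). Taf1d, a subunit of the selectivity factor, rose by 1.27 with DFO (adjusted p = 4.98e-07).

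Ribosome assembly factors differed in direction between the comparisons. Of 42, 20 rose and 5 fell with DFO, with a median of 0.17, whereas 8 rose and 13 fell with both treatments. In siNCOA4+DFO against siControl+DFO 17 fell and none rose, with a median of −0.30, in siNCOA4+DFO against siNCOA4 12 rose and 4 fell, and with knockdown alone 8 fell. With DFO 47.6% rose, against 27.7% of all genes, and in siNCOA4+DFO against siControl+DFO 40.5% fell, against 10.2%. With both treatments 50.0% were called, near the 48.8% of all genes. With knockdown alone 19.0% fell, against 7.21% of all genes. In siNCOA4+DFO against siNCOA4 28.6% rose and 9.52% fell, against 23.1% and 19.6%. As 1 library was left out, the rises with DFO ran from 14 to 21 and the falls under DFO from 9 to 19. Brix1, needed for the large subunit, was at 35.04, 36.7 and 34.4 FPKM in siControl, 38.9, 38.4 and 37.1 in siNCOA4, 106, 91.1 and 94.4 in siControl+DFO and 75.9, 66.9 and 56.1 in siNCOA4+DFO. It rose by 1.45 with DFO (adjusted p = 2.18e-07) and fell by 0.56 in siNCOA4+DFO against siControl+DFO (adjusted p = 0.00348).

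Gnl2, a nucleolar GTPase of the large subunit, was at 46.5, 47.1 and 45.7 FPKM in siControl and 118, 116 and 104 in siControl+DFO, a rise of 1.27. Gnl3 rose by 1.16 in siNCOA4+DFO against siNCOA4 (adjusted p = 3.79e-06). Dkc1, the pseudouridine synthase of the H/ACA small RNAs, fell by 0.80 with both treatments (adjusted p = 3.87e-05). Eif6, which keeps free large subunits apart from small ones, fell by 0.69 in siNCOA4+DFO against siControl+DFO (adjusted p = 0.00146).

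Of 9 iron-dependent enzymes that act on ribosomes and translation, 1 rose and 1 fell with knockdown, 1 rose and 3 fell with DFO, 1 rose and 2 fell with both, none was called by limma in siNCOA4+DFO against siControl+DFO, and 3 fell in siNCOA4+DFO against siNCOA4. With DFO these were 44.4%, below the 53.4% of all genes. With knockdown 22.2% were called, against 11.7% of all genes, and with both treatments 33.3%, against 48.8%. In siNCOA4+DFO against siNCOA4 33.3% fell, against 19.6%. Without siControl replicate 1, the counts with knockdown were 0 higher and 0 lower. Ogfod1, the prolyl hydroxylase of Rps23, was at 6.64, 8.12 and 7.56 FPKM in siControl and 10.5, 10.0 and 9.90 in siNCOA4, and rose by 0.44 (adjusted p = 0.0273), a call lost without siControl replicate 1 or 3 or any 1 siNCOA4 library (adjusted p up to 0.0908). With DFO, Jmjd4, the hydroxylase of a release factor, rose by 0.68 (adjusted p = 0.000523), while Dph2, of diphthamide synthesis, fell by 0.62 (adjusted p = 0.00402) and Elp3, of the Elongator complex that modifies transfer RNA, by 0.57 (adjusted p = 0.000519).

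Genes of mTORC1 and the control of TOP transcripts included some of the larger responses to DFO. Of 17, 2 fell with knockdown, 6 rose and 2 fell with DFO, 7 rose and 3 fell with both, 2 fell in siNCOA4+DFO against siControl+DFO, and 7 rose and 1 fell in siNCOA4+DFO against siNCOA4. The share called was 11.8% with knockdown, 47.1% with DFO and 58.8% with both, against 11.7%, 53.4% and 48.8% of all genes. In siNCOA4+DFO against siControl+DFO it was 11.8%, beside 16.5% of all genes, and in siNCOA4+DFO against siNCOA4 47.1%, beside 42.7%. Sesn2, which restrains mTORC1 when amino acids are short, was at 6.64, 7.26 and 6.45 FPKM in siControl and 60.8, 71.6 and 68.0 in siControl+DFO, a rise of 3.28 (adjusted p = 8.62e-09). Ddit4, another inhibitor of mTORC1, rose by 2.72 with DFO (adjusted p = 7.73e-09), and Eif4ebp1, a repressor of cap-dependent translation, by 1.22. Larp1, which binds the TOP motif, fell by 0.49 with knockdown (adjusted p = 0.00314). These are transcript levels, and neither mTORC1 activity nor translation was measured in these libraries.

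Markers of other cells were checked for the whole culture. The 14 neuron markers summed to 25.4 to 29.9 FPKM in siControl, 21.6 to 27.5 in siNCOA4, 24.7 to 26.7 in siControl+DFO and 19.1 to 24.4 in siNCOA4+DFO, and of the 4 tested 1 rose and 2 fell with DFO and 2 fell with both. The 15 glial, microglial and endothelial markers summed to 49.8 to 57.1 FPKM in siControl, 27.9 to 31.8 in siNCOA4, 5.35 to 8.47 in siControl+DFO and 8.74 to 18.4 in siNCOA4+DFO. That sum was almost all Slc1a3, at 2.64 to 45.6 FPKM, and Tmem119, at 0.407 to 11.8, while Olig2 and P2ry12 were at 0 in every library. Both fell with DFO. Of the 4 markers of this list that were tested, 1 rose and 2 fell with DFO, and 1 rose and 2 fell with both treatments. The part of such markers in the levels of the ribosomal protein genes was not tested.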

How the data were processed

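Total RNA of 12 HT22 cultures was sequenced by the authors after stranded library preparation, and 1 table of gene FPKM per library was deposited. The submitters' processing notes name Trimmomatic 0.33, FastQC, HISAT2 2.1.0, featureCounts, edgeR and build mm10. The annotation, and how the authors treated fragments with several alignments before the FPKM were deposited, are not given in the sources used here. Counts and total depth are unknown. Steps of single fragments among low values gave relative depths of 0.928 to 1.41 (siControl replicate 1 set to 1). Each table held 24347 entries, 4 of which shared a name and were left out.

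The 11924 genes that reached 0.5 FPKM in 3 or more libraries were fitted on log2(FPKM + 0.1), which understates changes of low genes, with limma 3.58.1 in R 4.3.3. The fit had group means over all 12 libraries and a mean-variance trend (residual df 8, prior df 4.07), and p was adjusted by Benjamini-Hochberg over all genes tested in a comparison (threshold 0.05). In simulated data with 200 changed genes among the 11924, 71.0% (interaction) to 85.5% (siNCOA4+DFO against siNCOA4) were recovered. These shares cover all 200 genes together, and recovery of changes as small as the median changes of the members was not tested.

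Named were Rplp0, Rps3, Rplp1, Rplp2 and Rpsa, the like-paralogs with their parents, Rpl5, Rpl11, Rps6, the hydroxylase substrates, the ubiquitin fusions, Rps19bp1, the 5 largest rises and falls called in each comparison, the 3 highest and 3 lowest levels, and the 3 largest called changes of each gene list in the comparison described. The members, lists and tests were chosen with earlier results of these data known. Gene positions and 75-base windows came from GENCODE M21 on GRCm38 (the coding transcript of median length), and start sites from RefSeq GRCm38.p6. Alternatives were the pseudocount, the filter, 3 scalings, a replicate block, only the groups compared, 2 kinds of moderation and each library left out. Splits by shared windows, pyrimidine runs and transcript length, and the lists with a library left out, were added after the data were seen. Some genes that the rule names are not reported here.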

Additional observations from a re-analysis of the deposited data

Results flagged for a closer look

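No ribosomal protein gene differed in its response to Ncoa4 knockdown between cells with and without DFO at an adjusted p below 0.05. Of the genes of the related lists that the report names, 3 did, by the interaction term of the limma fit over all 12 libraries. Eif4b had an interaction of 0.48 ± 0.09 on the log2 scale (adjusted p = 0.0182): it was at 334, 324 and 315 FPKM in siControl and 244, 228 and 241 in siNCOA4, whereas the siControl+DFO libraries, at 209.8, 204 and 206, overlapped the siNCOA4+DFO libraries, at 212, 216 and 208. Brix1, in contrast, had an interaction of −0.66 ± 0.14 (adjusted p = 0.0358, up to 0.088 as 1 library was left out), with siNCOA4+DFO below siControl+DFO and no called change with knockdown at normal iron. Ddit4 had an interaction of −0.87 ± 0.17 (adjusted p = 0.0271, up to 0.0689 as 1 library was left out). It was at 20.4, 25.7 and 23.8 FPKM in siControl and 30.8, 28.4 and 30.5 in siNCOA4, but at 152, 163 and 147 in siControl+DFO and 126, 115 and 88.1 in siNCOA4+DFO. Of the 12 fits without 1 library, the call was lost in 4 for Eif4b, in 10 for Brix1 and in 7 for Ddit4, among them, for Brix1 and Ddit4, the fit without siControl replicate 1. The groups hold 3 libraries each, too few for a test of single libraries that lie far from the rest.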

How the results depend on the processing

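As each library was left out in turn, the number of ribosomal protein genes called ran from 0 to 5 for siNCOA4 against siControl, 6 to 30 for siControl+DFO against siControl, 15 to 69 for siNCOA4+DFO against siControl, 1 to 8 for siNCOA4+DFO against siControl+DFO, 5 to 19 for siNCOA4+DFO against siNCOA4 and 0 to 1 for the interaction. The medians ran from −0.24 to 0.00, −0.25 to −0.05, −0.44 to −0.23, −0.23 to −0.13, −0.25 to −0.15 and −0.17 to 0.04 in that order, so that of the interaction changed sign without siControl replicate 1. For siControl+DFO against siControl, 22 were called with upper-quartile scaling. With quantile scaling 2 were called for siNCOA4 against siControl (Rpl36 and Rps27l, both higher), where the median became 0.03, and 18 for siNCOA4+DFO against siNCOA4, where upper-quartile scaling gave 17. The 2 were 2.38% of the members, against 5.19% of all genes called as higher. The 18 were 21.4%, against 23.3% of all genes called as lower, and the 17 were 20.2%, against 22.8%. For siNCOA4+DFO against siControl+DFO the median was −0.05 with quantile and −0.09 with upper-quartile scaling, and the count was 1 with upper-quartile scaling and 4 with robust moderation. Called as lower were 1.19% of the members and 6.28% of all genes with upper-quartile scaling, and 4.76% and 10.5% with robust moderation. With only the groups compared in the fit, which leaves fewer libraries for the spread, the counts were 1 (siNCOA4), 15 (both treatments against siControl) and 1 (against siControl+DFO). Of the members 1.19% were higher, 16.7% lower and 1.19% lower in that order, against 3.33%, 20.6% and 6.86% of all genes. With a fold change above 2 required as well, 1, 1 and 1 were called for DFO, for both treatments and against siControl+DFO, and 0 against siNCOA4. The shares of all genes were 18.8%, 15.2%, 2.09% and 11.4%. Of the values of single named genes under all alternatives, 4870 stayed on the same side of the threshold with the same direction, 102 lost their call, 73 gained one and none reversed. The cause of these differences was not tested.

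The same replicate number did not mark paired libraries: deviations from the group means correlated from −0.127 to 0.116 over 18 same-numbered pairs. With a replicate block, 0, 11, 30, 1 and 10 members were called in the 5 comparisons in the order above, and 0 for the interaction, so only the count against siControl+DFO moved by over 1.5 times. Called as lower were then 0, 11.9, 34.5, 1.19 and 11.9% of the members, against 6.16, 25.1, 22.9, 9.25 and 19.2% of all genes. Without counts, the depth behind a level is unknown, and levels of the genes with many copies or under 100 FPKM are the least certain.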
